A study of Mus musculus with 4 samples.

Results

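The STAT genes encode the signal transducers and activators of transcription, and 6 of them were examined for binding by phosphorylated STAT3 (pSTAT3): Stat3, Stat2, Stat4, Stat6, Stat5b and Stat5a. The members were taken by gene name, without use of any binding value. Every region that the authors' table of reproducible binding regions listed for 1 of these genes was counted, which gave 14 of 12925 regions, beside 21883 protein-coding genes in the reference. All genes with a row lay within 25 kb of their regions, and Stat5a had no row. The data came from chromatin immunoprecipitation and sequencing (ChIP-seq) of cultured cortical oligodendrocyte progenitor cells of C57BL/6 mice. These are the dividing cells from which myelin-forming oligodendrocytes arise. The series has 2 pSTAT3 ChIP libraries, made with an antibody against STAT3 phosphorylated at Y705, and 2 input libraries that were not analysed here. All cells received CNTF at 100 ng/ml for 15 min on top of the mitogens bFGF at 20 ng/ml and PDGF-AA at 10 ng/ml, so no group without CNTF was present and binding before CNTF was not measured. Lysed cells were pooled before sonication and no label names separate cultures for the ChIP libraries, so the spread between replicates may be technical. No RNA was measured, so the cell type could not be checked by marker genes and bound genes could not be compared with their expression.

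STAT proteins wait in the cytoplasm until a cytokine receptor and its JAK kinases phosphorylate them on a tyrosine. The phosphorylated proteins then pair, enter the nucleus and bind palindromic DNA sites, often of the form TTCNNNGAA. CNTF, a cytokine that acts on neural cells, signals through a receptor complex with gp130 and activates mainly STAT3, whose own gene is a known target of STAT3. STAT2 serves type I interferon signalling, STAT4 interleukin-12, STAT6 interleukin-4 and interleukin-13, and STAT5A and STAT5B growth hormone, prolactin and several other cytokines.

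Binding near these genes was graded. The Stat3 promoter carried the strongest reproducible region of the whole series, with 57.0-fold and 73.5-fold enrichment in replicates 1 and 2, and a pair of strong regions lay upstream of it. Stat2 had a region of 24.6-fold and 22.5-fold at its promoter. The strongest region listed for Stat4 had 36.8-fold and 49.2-fold enrichment, but it lay past the end of the gene and not at its promoter. Regions listed for Stat6 stayed at or below 12.8-fold and lay nearer to starts of other genes. Stat5b had 1 weak region inside the gene, and Stat5a none in the table. Fold enrichment is the authors' value for each peak, the pileup (how many fragments overlap at a peak's summit) over the local background, with 1 added to each. Each region was given the strongest overlapping peak of each replicate, and regions were ranked by the lower of both folds.

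**Figure D1:**
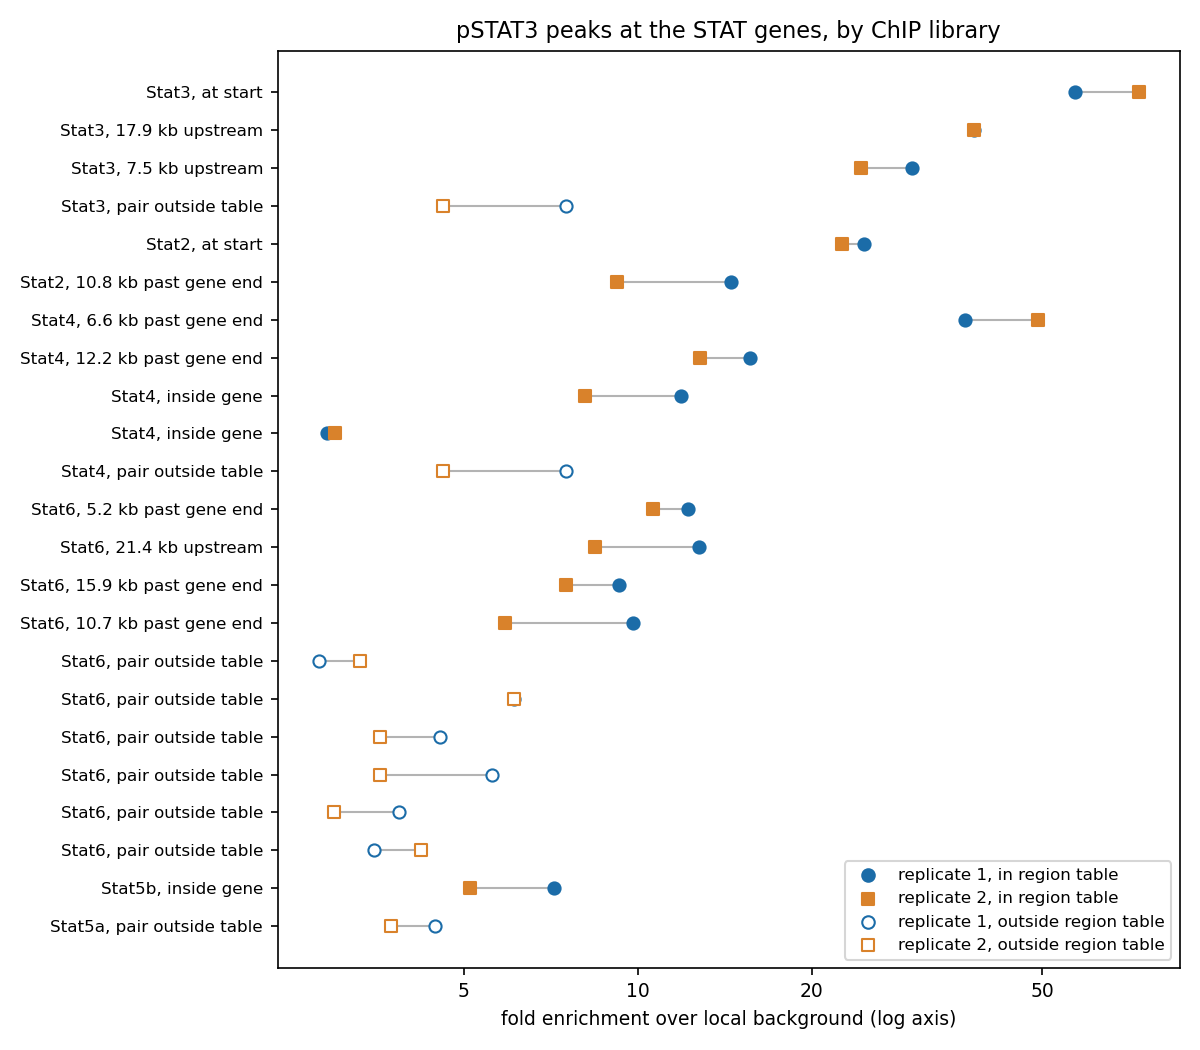
Fold enrichment (log axis) of each pair of pSTAT3 peaks at the STAT genes, with replicate 1 as circles and replicate 2 as squares; filled symbols are regions of the authors' table and open symbols are overlapping peaks outside it. The Stat3 promoter stands highest at 57.0-fold and 73.5-fold, and the Stat5b and Stat5a pairs are at or below 7.17-fold.

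The promoter sequences under the strongest regions are given here, as 300 bases from 250 before to 50 after the RefSeq start (GRCm38.p6), to show what lies beneath the summits. The windows are Stat3 on the minus strand at chr11:100939491-100939790, Stat2 on the plus strand at chr10:128270248-128270547, and Gm31812, the start under the strongest region listed for Stat4, on the minus strand at chr1:52113841-52114140. Capitals mark matches to the searched STAT motifs.
Stat3: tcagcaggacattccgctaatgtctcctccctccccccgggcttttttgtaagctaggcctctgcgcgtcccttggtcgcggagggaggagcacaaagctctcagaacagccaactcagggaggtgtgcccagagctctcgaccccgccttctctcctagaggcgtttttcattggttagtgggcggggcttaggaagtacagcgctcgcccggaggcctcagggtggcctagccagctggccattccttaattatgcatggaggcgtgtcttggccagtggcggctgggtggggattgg
Stat2: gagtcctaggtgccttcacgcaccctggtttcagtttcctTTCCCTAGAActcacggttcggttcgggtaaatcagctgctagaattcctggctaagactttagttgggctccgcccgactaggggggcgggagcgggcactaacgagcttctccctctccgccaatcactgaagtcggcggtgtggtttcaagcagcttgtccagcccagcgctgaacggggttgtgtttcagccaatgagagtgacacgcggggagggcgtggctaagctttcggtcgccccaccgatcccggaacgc
Gm31812: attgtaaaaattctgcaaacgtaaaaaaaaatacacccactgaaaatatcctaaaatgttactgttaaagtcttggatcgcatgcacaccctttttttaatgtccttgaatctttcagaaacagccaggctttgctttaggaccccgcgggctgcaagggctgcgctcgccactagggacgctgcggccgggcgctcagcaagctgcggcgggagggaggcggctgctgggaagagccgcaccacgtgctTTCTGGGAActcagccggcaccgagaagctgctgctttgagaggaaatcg

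The summits of both replicates fell inside all 3 windows, 230 and 235 bp upstream of the Stat3 start, 175 and 178 bp upstream of the Stat2 start, and 12 and 8 bp upstream of the Gm31812 start. The motifs searched, which read the same on both strands, were TTCNNNGAA, the narrower TTCCNGGAA that it contains, and TTCNNNNGAA, with 1 more base in the middle and added after the data were seen. The Gm31812 window held TTCTGGGAA, which begins at the start itself and has its centre 16 and 12 bp from the summits. The Stat2 window held TTCCCTAGAA, a match to TTCNNNNGAA from 210 to 201 bp upstream of the start, centred 30.5 and 27.5 bp from the summits. The Stat3 window held no match to these letters, and its edge lies 20 bases or fewer beyond the summits, so sequence on the far side was not searched. TTCNNNGAA occurred in 21.2% of the 1264 promoter windows with summits of both replicates, against 8.30% of all 32851 windows. TTCCNGGAA occurred in 9.26% of the windows with summits, against 1.15% of all windows. TTCNNNNGAA occurred in 5.70% of the windows with summits, against 6.95% of all windows. Of the other starts at these regions, the Lrp1 window held TTCCCAGAA, centred 50 and 39 bp from the summits of the region there, and the Gm16230 window held TTCCATCGAA, centred 119.5 and 71.5 bp from them. The windows of Pan2, Nemp1 and Nab2 at such regions, and those of Stat4, Stat6, Stat5b and Stat5a held no match to these letters. The summits lay outside the window at Lrp1 (278 and 267 bp upstream of the start), Pan2 (361 and 410 bp downstream) and Nab2 (955 and 962 bp downstream). Sequence under those summits was therefore not searched. The motif matches are descriptions of sequence and not measured binding sites.

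**Figure D2:**
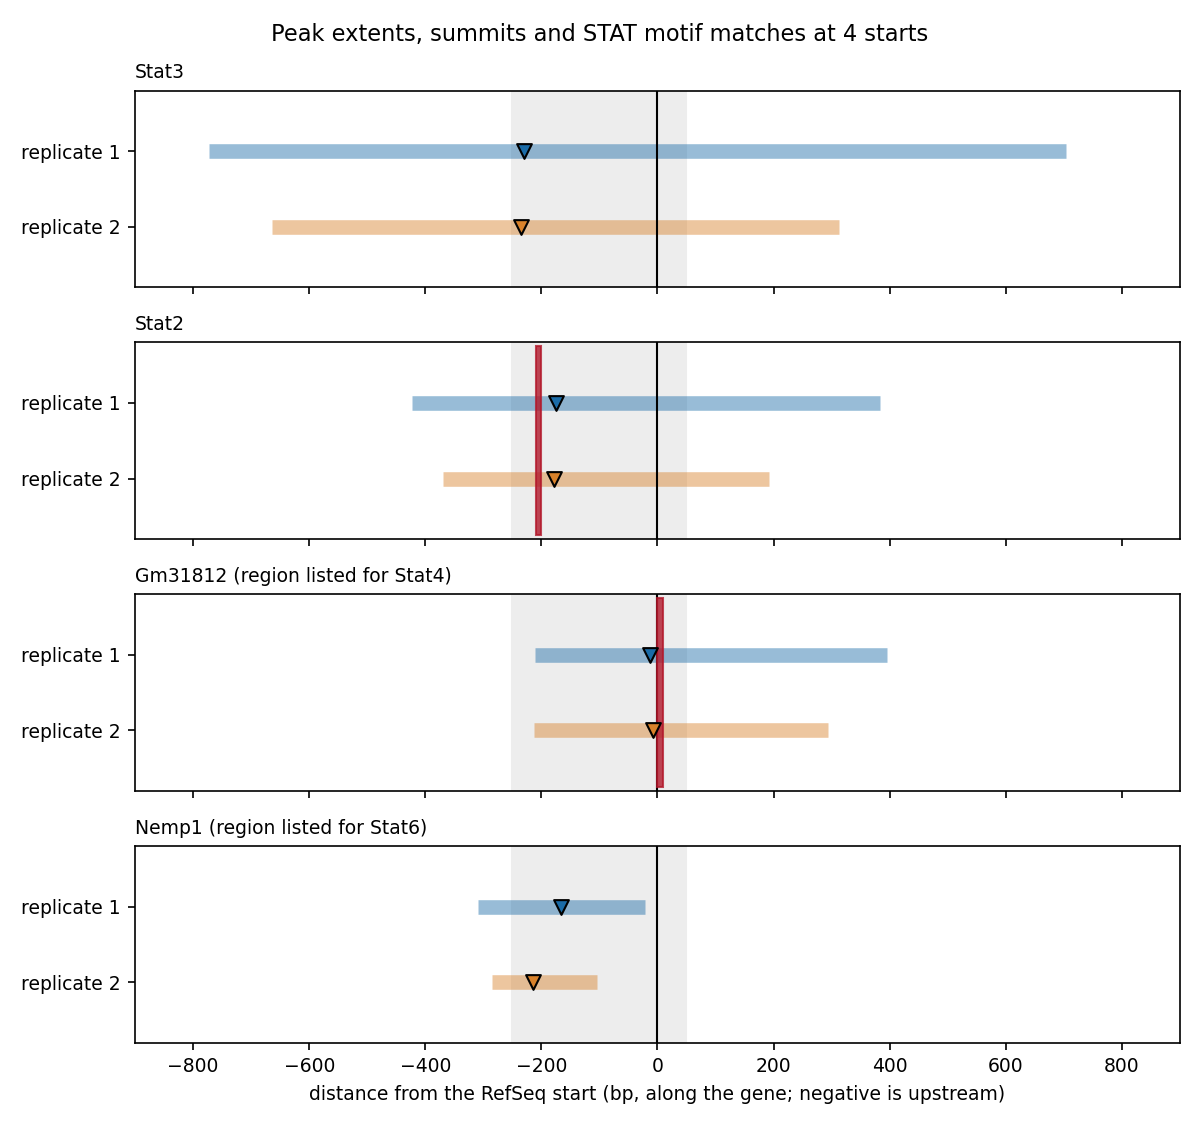
Extent of the peaks of each replicate (bars), their summits (triangles) and STAT motif matches (red) around 4 RefSeq starts, by distance along the gene in bp, with the 300-base window shaded. The Gm31812 match is to TTCNNNGAA, and the Stat2 match to TTCNNNNGAA, the form added after the data were seen. Each lies 30.5 bp or less from both summits, and the summits at Stat3 lie near the upstream edge of the window.

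Stat3 (ENSMUSG00000004040, minus strand of chromosome 11) encodes the factor that the antibody recognises when phosphorylated. Its promoter region, at chr11:100938836-100940313, had a pileup of 325 fragments in replicate 1 and 286 in replicate 2. Both were the highest among the regions, and the region ranked first of 12925 by fold. It was 1478 bp wide, wider than 98.5% of all regions. The midpoint lay 34 bp upstream of the start, while the summits, 5 bp apart, lay 230 and 235 bp upstream. The local background beneath it was 4.72 and 2.91 fragments, the lowest value in each library's list.

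Farther upstream, the region at chr11:100946620-100947500 lay 7.52 kb from the Stat3 start. It had 215 and 121 fragments and 29.8-fold and 24.3-fold enrichment, and ranked 569. The region at chr11:100957051-100957852 lay 17.9 kb upstream, within Ptrf, which encodes the caveolar coat protein cavin-1. There the replicates had 266 and 181 fragments and 38.2-fold and 38.1-fold enrichment, which placed it 71st. It was nearer to a listed start of Ptrf (13.1 kb) than to that of Stat3. Its listing under Stat3, like that of every region under a gene here, rests on distance alone. All 3 Stat3 regions were above 20-fold in both replicates, a level that 7.76% of all regions reached. A weaker pair of overlapping peaks lay between them, 12.9 and 12.8 kb upstream, with 7.52-fold and 4.61-fold enrichment, and was not in the region table. Inside the gene, replicate 1 had a peak of 8.50-fold with 63 fragments at chr11:100893479-100893747 that replicate 2 lacked.

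Stat2 (ENSMUSG00000040033, plus strand of chromosome 10) encodes the partner of IRF9 in the interferon-activated complex. Its promoter region, chr10:128270075-128270881, had 144 and 87 fragments and ranked 723 of 12925. The summits of the replicates were 3 bp apart. They lay upstream of the start by 175 and 178 bp from the RefSeq start and by 253 and 256 bp from the start in the authors' table. The region also overlapped the end of Apof, the gene of apolipoprotein F. The other region listed for Stat2, at chr10:128303097-128304161, lay 10.8 kb past the end of the gene and had 14.5-fold and 9.22-fold enrichment. Its midpoint was 294 bp downstream of the start of Pan2, which encodes a subunit of a poly(A) nuclease, so the nearest listed start was that of Pan2.

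Stat4 (ENSMUSG00000062939, plus strand of chromosome 1) spans 120.1 kb, and its 4 regions ranged from near the top of the table to its weakest end. The region at chr1:52113495-52114101 had 306 and 235 fragments and ranked 101, and it lay 6.61 kb past the gene's end. The region at chr1:52119171-52119616, 12.2 kb past the end and within 1 kb of the start of a neighbouring gene, had 15.6-fold and 12.8-fold enrichment. Neither region was at the Stat4 promoter, and the midpoints of both lay within Gm28177. Inside the gene, the region at chr1:52043094-52043576 had 11.9-fold and 8.10-fold enrichment. The other inside region, chr1:51996915-51997357, had only 2.91-fold and 2.99-fold enrichment, with 28 and 15 fragments, and ranked 12849. Its irreproducible discovery rate (IDR, the authors' measure of disagreement between replicates) was 0.0392, against a limit of 0.05 in the table. It was 1 of 145 regions with a mean -log10 p below 10, of which the highest was 6.22, while the next region had 11.5. A pair of overlapping peaks nearest to a listed Stat4 start, 597 and 587 bp inside from it, had more support, at 7.52-fold and 4.61-fold and a mean -log10 p of 17.2, and was not in the table.

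Stat6 (ENSMUSG00000002147, plus strand of chromosome 10) encodes the mediator of interleukin-4 responses, and none of its 4 regions lay within 5 kb of its start. The region at chr10:127621270-127621832, 21.4 kb upstream, had 12.8-fold and 8.45-fold enrichment and lay 403 bp upstream of Lrp1, a lipoprotein receptor gene. The region at chr10:127665501-127666773, 5.18 kb past the end of Stat6, had 12.2-fold and 10.6-fold enrichment. Nab2, which encodes a corepressor of EGR factors, has a start 495 bp from its midpoint. The region at chr10:127676756-127677044, with 9.29-fold and 7.51-fold enrichment, lay between the divergent starts of Nemp1, a nuclear envelope protein gene, and Gm16230. The weakest, chr10:127671499-127671911, had 9.80-fold and 5.89-fold enrichment. Thus 3 of the 4 regions had a start of another gene within 1 kb, and no Stat6 start was the nearest listed start of any of them. A further 6 pairs of overlapping peaks near Stat6 were not in the region table, with 6.12-fold or less in replicate 1 and 6.11-fold or less in replicate 2.

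Stat5b (ENSMUSG00000020919) and Stat5a lie next to each other and to Stat3 on chromosome 11, and encode closely related proteins. Stat5b had 1 region, chr11:100788059-100788407, inside the gene and 34.3 kb downstream of the nearest listed start. It had 40 and 19 fragments, 7.17-fold and 5.12-fold enrichment, an IDR of 0.0124 and rank 10864. Near the outermost start in the authors' table, chr11:100850724, replicate 1 had a peak of 4.25-fold 751 bp upstream, while the nearest peak of replicate 2 was 8.67 kb upstream. The RefSeq record of Stat5b reaches farther, to chr11:100859004. Stat5a had no region. A pair of overlapping peaks outside the table, at chr11:100859264-100859494 in replicate 1, had 29 and 17 fragments and 4.47-fold and 3.75-fold enrichment. This pair lay where the 5′ ends of both genes face away from each other. Its summits were 24 and 46 bp inside the 5′ end of the RefSeq record of Stat5a, and 281 and 259 bp upstream of the next RefSeq start of that gene. They were also 371 and 393 bp upstream of the 5′ end of the RefSeq record of Stat5b. Peaks at these 5′ ends were thus present in both lists, with lower folds than the Stat5b region and with no row in the region table.

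**Figure D3:**
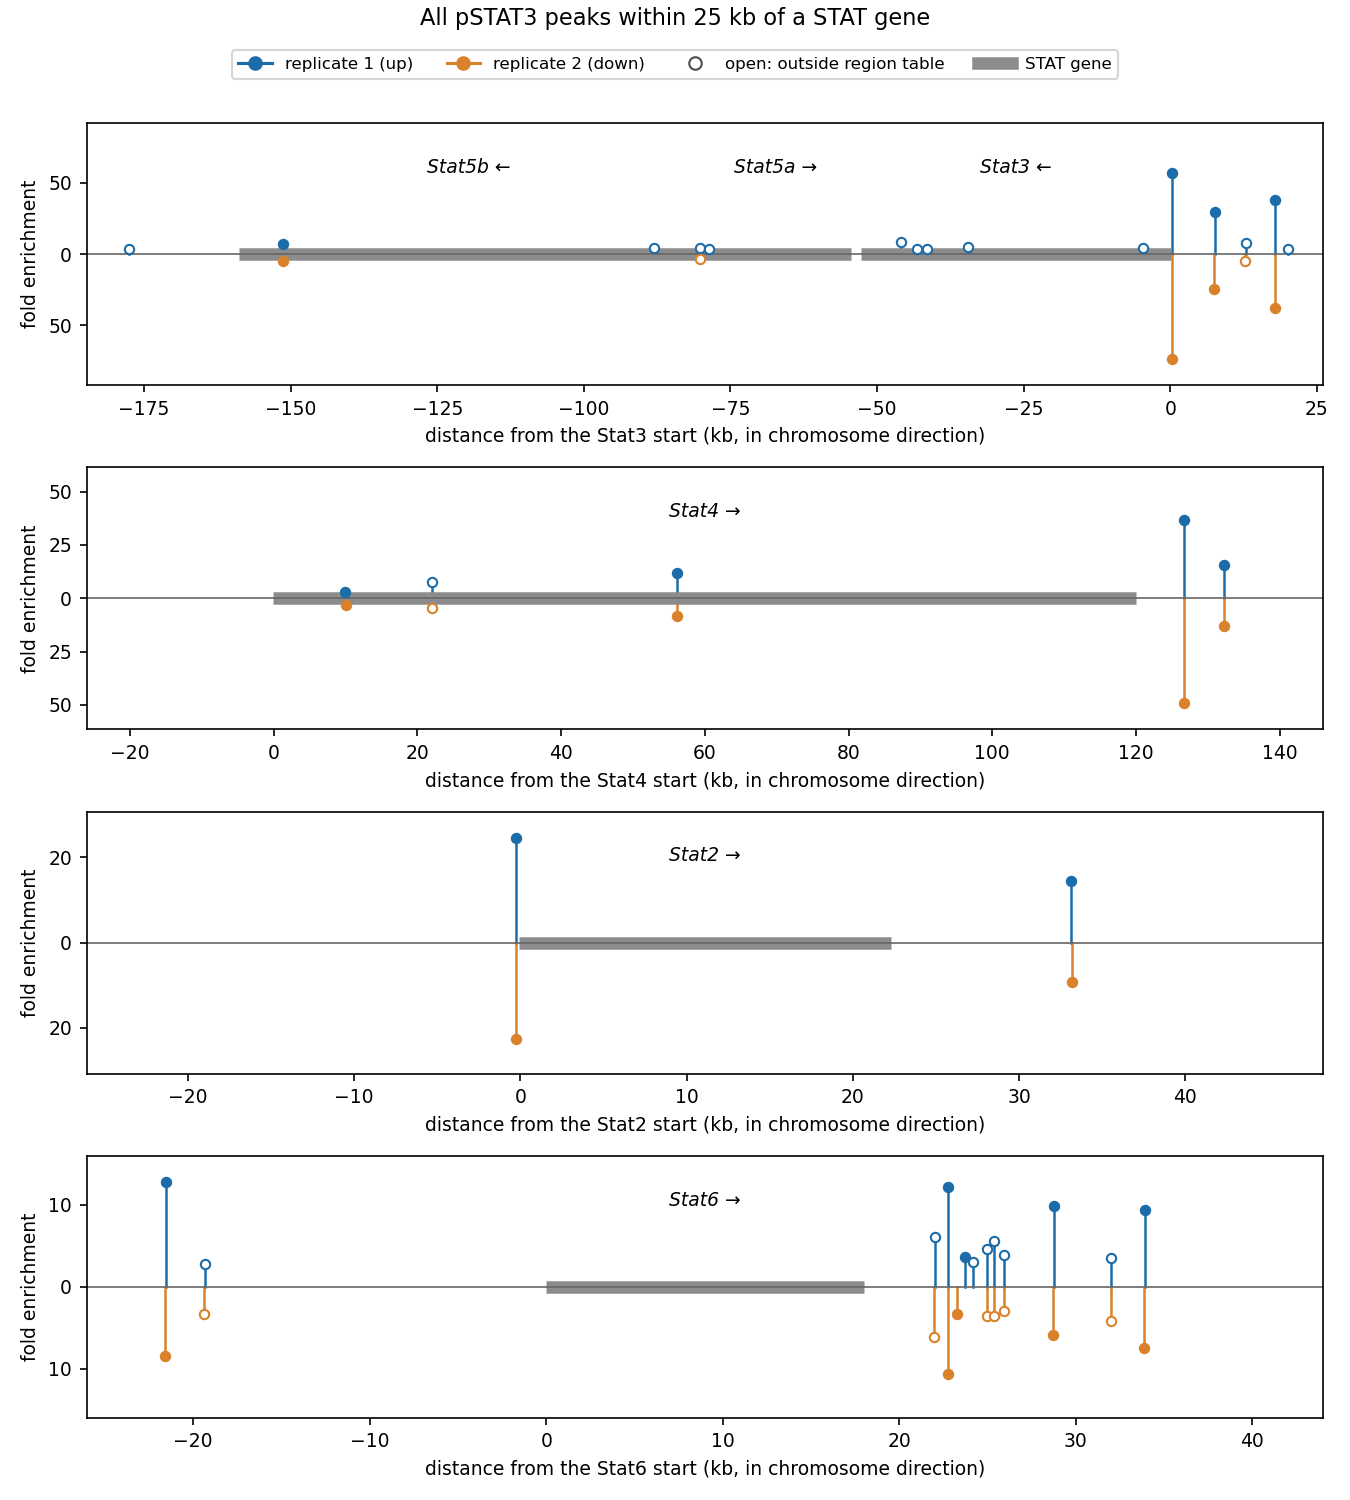
All peaks within 25 kb of a STAT gene, by distance in kb from a start in chromosome direction, with fold enrichment of replicate 1 drawn upward and of replicate 2 drawn downward; filled symbols lie in the region table and grey bars are genes. The Stat3 regions lie at and upstream of the start, and the strong Stat4 regions lie beyond the gene's end.

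Ordered by their strongest region, the genes ran Stat3, Stat4, Stat2, Stat6 and Stat5b. For Stat4, Stat6 and Stat5b, the nearest listed start to that region was not the gene's own. The lower replicate of each gene was above the higher replicate of the next, so no neighbours in this order overlapped between replicates, although 2 libraries give only a coarse measure of spread. The order of the strongest regions is read beside the height of the pileup. The highest pileup in the lists was 326 and 302 fragments, exactly 2 times the length of the shortest peak, 163 and 151 bp. The Stat3 promoter stood at 99.7% and 94.7% of that highest value, and the strongest Stat4 region at 93.9% and 77.8%. Only 67 peaks of replicate 1 and 44 of replicate 2 came within 10% of it, and whether this bears on the order was not tested. The 3 regions nearest to the Stat3 promoter in log2 fold over both replicates were those nearest to Gm19257 (53.9-fold and 60.4-fold), BC007180 (50.8-fold and 57.1-fold) and Gm27813 (51.8-fold and 51.7-fold). They lay at a log2 distance of 0.29, 0.40 and 0.53 from the Stat3 promoter over the 2 libraries. Each was 10.5 kb or more from the listed start of the gene named with it.

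Counted by gene, 5 of the 6 STAT genes had a region within 25 kb of a listed transcript, where 41% of the reference genes did. A wide window of this kind takes in much of the genome, and long genes such as Stat4 have more of it. Within 5 kb of a listed start, 2 of 6 had a region (Stat3 and Stat2) against 18.1% of the reference genes, and within 1 kb the same 2 against 12.8%. At 20-fold or more in both replicates, 3 of 6 had a region within 25 kb (Stat3, Stat4 and Stat2) against 5.28%. At least 3 regions were listed for 3 of 6 genes, against 7.65%, and at least 4 for 2 of 6, against 3.66%. For 3 of 6 genes (Stat3, Stat2 and Stat4), a region had that gene's start as its nearest listed start, against 22.1%. For Stat4 this was only the weak region inside the gene, with 2.91-fold and 2.99-fold enrichment, and not its strongest region. The median lower fold of the strongest region was 22.5 over the 5 STAT genes with one and 9.17 over the 8971 reference genes with one. The 6 genes fall in 4 loci, so they are not 6 independent places in the genome. In the peak lists, all 6 had a peak within 25 kb in replicate 1 (71.3% of the reference genes), in replicate 2 (60%), and overlapping in both (58%).

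Counted by region, the 14 STAT regions had a median lower fold of 9.92, against 7.48 over all 12925, and 11 of the 14 were above that value. At 20-fold or more in both replicates were 5 of 14, against 7.76% of all regions. An IDR of 0.01 or below was reached by 12 of 14, against 79.3% of all. The summits of the replicates were a median of 12.5 bp apart at STAT regions and 20 bp apart over all regions. The median width was 585 bp for STAT regions and 504 bp for all regions. A start of 1 of the 6 examined genes was the nearest listed start for 4 of the 14. A listed start of a gene outside these 6 lay within 1 kb of 5, and a start of 1 of these 6 within 1 kb of 2. Over all regions, 23.9% had a listed start of any gene within 1 kb. With RefSeq starts counted too, the count for genes outside these 6 was 6 of 14, since the strongest Stat4 region lies at Gm31812.

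Fold enrichment was lower in replicate 2 than in replicate 1 at most regions, with a median ratio of 0.753 over all. Replicate 2 was higher at 3 of 14 STAT regions, against 4.85% of all regions. These were the Stat3 promoter, with a ratio of 1.29, the strongest Stat4 region with 1.34, and the weak region inside Stat4 with 1.03. In replicate 1, the Stat3 promoter and the strongest Stat4 region stood at 99.7% and 93.9% of the highest pileup. Whether this bears on their ratios was not tested. The median ratio was 0.951 over the 141 regions of 35-fold or more in both replicates. Of the individual peaks at the STAT loci, 24 of 34 in replicate 1 (70.6%) overlapped a replicate 2 peak, against 56.6% of all replicate 1 peaks. In the other direction, 24 of 24 replicate 2 peaks (100%) overlapped a replicate 1 peak, against 92.3% of all. The locus of Stat5b, Stat5a and Stat3 held the most unshared peaks, with 6 of its 15 replicate 1 peaks (40%) shared. Peaks of both replicates overlapped in 9 pairs at the STAT loci that the region table did not hold.

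**Figure D4:**
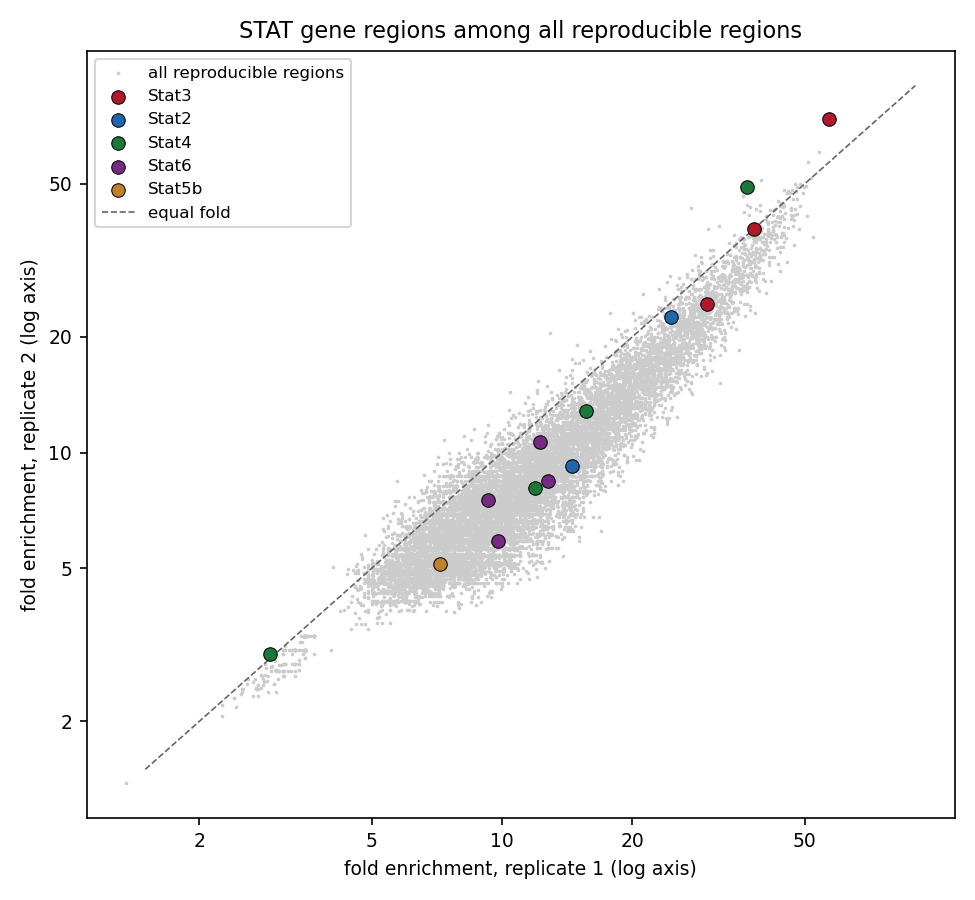
Fold enrichment in replicate 1 and replicate 2 (log axes) of the 12925 reproducible regions in grey, with the 14 STAT regions in colour by gene and a dashed line at equal fold. The Stat3 promoter lies at the top right corner and above the line, as does the strongest Stat4 region.

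The other genes of the pathway were described from a list of 44 receptors, JAK kinases, inhibitors, phosphatases and partner proteins. Within 5 kb of a start, 14 of 44 had a region, against 18.1% of the reference genes, and within 25 kb of a transcript 22 of 44, against 41%. Regions that reached 20-fold in each replicate lay within 25 kb of 9 of 44, against 5.28%. The median lower fold of the strongest region was 16.1 over the 22 genes with one. By role, 3 of 4 JAK kinases, 6 of 19 receptors, 4 of 12 inhibitors, 1 of 5 partners and 0 of 4 phosphatases had a region within 5 kb of a start.

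Among the CNTF receptor genes, Il6st, which encodes gp130, had 44.1-fold and 36.4-fold enrichment at its start. Cntfr, the CNTF-binding subunit, had 42.4-fold and 32.2-fold 13.5 kb upstream, in a region that also lies within 25 kb of Il11ra1 and was counted for both. Lifr, the remaining CNTF receptor subunit, had 5 regions within 25 kb, the strongest with 7.15-fold and 6.25-fold enrichment. Of these 3 CNTF receptor genes, Il6st alone had one within 5 kb of its start. Of the interferon receptor genes, Ifnar2 had a region centred 116 bp past its start, with 30.2-fold and 25.8-fold enrichment. Irf9, whose protein joins STAT2 in the interferon-activated complex, had a region centred 165 bp past its start with 38.7-fold and 32.0-fold enrichment, above the 24.6-fold and 22.5-fold of the Stat2 promoter. Both genes of that complex named here were therefore bound at their starts in both replicates.

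The kinase genes Jak2 and Jak1 had their strongest regions away from starts. The Jak2 region had 36.2-fold and 35.9-fold enrichment 13.9 kb downstream of the nearest start, and the Jak1 region 31.3-fold and 24.4-fold 21.0 kb upstream. Of the inhibitors that end JAK-STAT signalling, Socs3 had 8 regions within 25 kb, more than any examined STAT gene. The strongest Socs3 region reached 49.9-fold and 49.2-fold. Cish had 29.9-fold and 23.3-fold enrichment at its start. The lower fold of each of these 9 genes was below the 57.0-fold of the Stat3 promoter. This held for every other region of the series too, since that promoter region ranked first by fold.

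**Figure D5:**
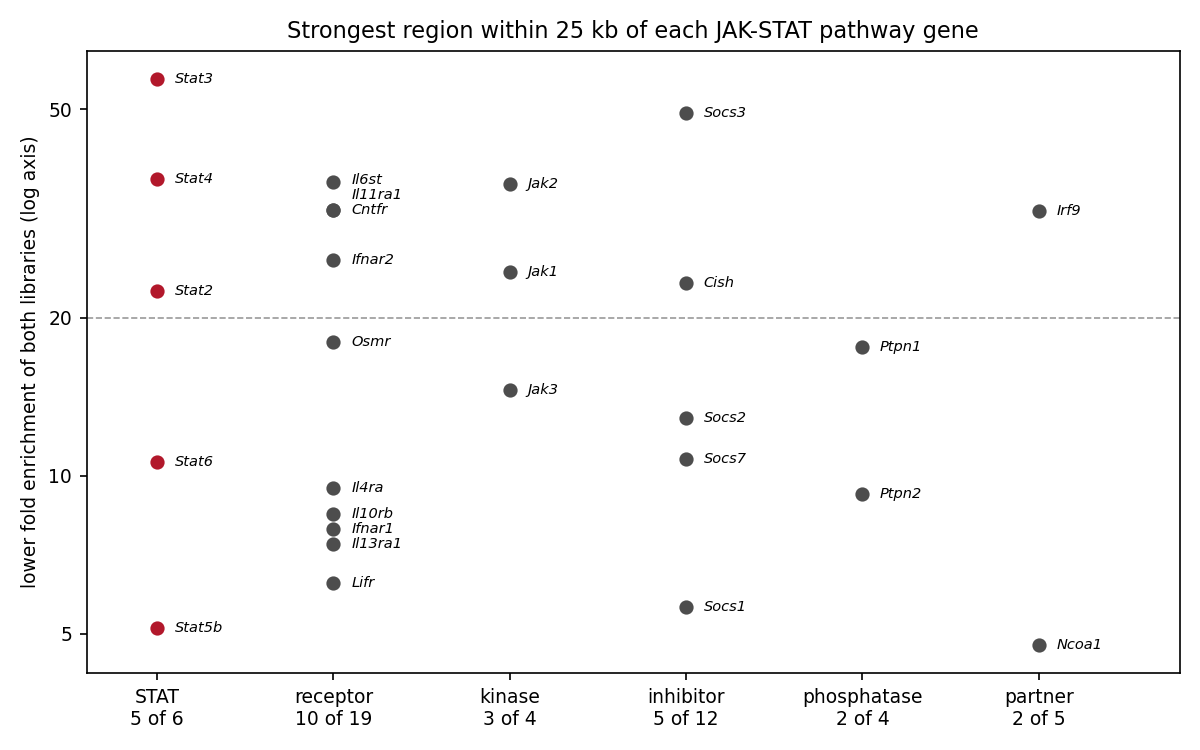
Lower fold enrichment of both replicates (log axis) for the strongest region within 25 kb of each JAK-STAT pathway gene, by role, with the STAT genes in red, a dashed line at 20-fold and counts of genes with a region below each role. Stat3 stands highest, and Stat6 and Stat5b lie below 20-fold.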

How the data were processed

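The submitters' processing notes name CASAVA 1.8, Bowtie2, MACS2 and build GRCm38.p3. Options and read numbers are not given in the sources used here; the lowest background of each list, 4.72 and 2.91 fragments, is the measure of depth at hand. The deposited peak lists, 42189 and 26649 peaks, give the pileup signal and the fold enrichment (a ratio), per the file headers. The -log10 p and -log10 q columns of the deposited lists have damaged headers and were named from their values. The authors' IDR stands under a p-value header in their table of regions, where the pileup column holds the mean -log10 p of the replicates.

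Regions were joined to peaks by at least 1 bp of overlap, in Python 3.11.15 with pandas 2.3.3 and numpy 2.4.6, after tests on simulated data. Starts came from the authors' table, and reference genes and promoters from RefSeq (GRCm38.p6), where all 6 members matched by symbol. Exons and introns were not classified. The named genes were the members, some of the genes sharing their regions, and pathway genes of 20-fold or more. Genes at the 3 regions most like the strongest one were named too. Further genes, such as Lifr, were picked with their values known. The members, lists and settings were chosen with earlier results of these data known. Without a control group, no test was made. Alternatives covered the IDR, -log10 q, distance windows, overlap rule, peak choice and each replicate alone. 1 neighbouring gene is not reported here.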

Additional observations from a re-analysis of the deposited data

How the results depend on the processing

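The count of STAT genes with a region was 5 within 25 kb and 4 at an IDR of 0.01 or at a -log10 q of at least 10, but 2 within 5 kb of a start, 2 within 1 kb, and 3 where the nearest listed start had to be the gene's own, a setting added after the data were seen. Counted by any peak of 1 replicate within 25 kb, and not by reproducible regions, the count was 6 in each replicate. That looser criterion was met by 71.3% (replicate 1) and 60% (replicate 2) of the reference genes. The median fold of the 14 regions was 9.92 to 13.6 over single replicates, and 14.6 as pileup over the lowest background. The median distance to a start was 13124.5 bp, 13112.5 to 13156.5 bp by the summits of single replicates, and 25935 bp from the outermost start. Shared peaks at the loci numbered 24, and 12 at a -log10 q of at least 10 in both lists, of 18 replicate 1 peaks. The count of pathway genes, 14 within 5 kb of a start, was 12 to 20 under the other start-based windows and the stricter IDR; counted within 25 kb of a transcript it was 22. With the peak nearest the midpoint, the Stat6 region at Nab2 had 3.29-fold enrichment in replicate 2 in place of 10.6-fold; the other 13 regions moved by less than the spread between replicates. No result reversed. No paired analysis was possible because no separate values of the inputs were at hand, and no result comes from a test between groups. At this depth, a peak missing from replicate 2, whose lowest background was 2.91 fragments against 4.72 in replicate 1, does not show that binding was absent.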
